A study of Mus musculus with 12 samples.

Results

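Interferon-stimulated effector genes were examined in the striatum of R6/2 mice, a model of Huntington's disease, with and without pharmacological removal of microglia in separate groups of mice. The set was chosen by symbol: every gene of the deposited table whose symbol starts with Ifi (which takes in Ifit and Ifitm), Oas, Gbp or Isg, which gave 32 genes, and 23 further names, of which 21 were in the table. Together these made 53 members of the 15397 genes in the table. The remaining names, Mx1 and Zbp1, were not analysed here. RNA from the whole striatum of 12 C57BL/6 mice was sequenced in 4 groups of 3 mice. The groups were wild-type mice on vehicle, R6/2 mice on vehicle, wild-type mice on PLX3397 and R6/2 mice on PLX3397. R6/2 mice carry a transgene for the first exon of human huntingtin with an expanded CAG repeat, driven by the human huntingtin promoter, so they express a fragment and not the whole mutant protein. PLX3397 inhibits Csf1r, the receptor on which microglia depend for survival, and was given in chow at 275 ppm from 7 to 11 weeks of age. The study asked whether depleting microglia alters the extracellular matrix, perineuronal nets and volume of the striatum in this model.

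Type I interferons bind a receptor pair that signals through the kinases Jak1 and Tyk2 to a complex of transcription factors that contains Irf9. That complex binds the interferon-stimulated response element (ISRE) in the promoters of its targets. The induced effectors sense foreign or misplaced nucleic acids (Ddx58, Ifih1, Oas proteins), block translation or entry (Ifit proteins, Eif2ak2, Ifitm proteins), or tag and untag proteins with the ubiquitin-like Isg15 (Isg15, Usp18, Herc6). Interferon gamma acts largely through a different element, the gamma-activated site (GAS), and is a strong inducer of the guanylate-binding proteins (Gbp). In the brain, microglia are one of the cell types that make and answer interferon, but neurons, astrocytes and endothelium also carry the receptors.

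The response element was looked for in promoters because the members are known as its targets. RefSeq windows on GRCm38.p6, from 250 bases before to 50 bases after a transcription start, were at hand for 39 of the 53 members (48 windows). Both strands were searched for the core GAAANNGAAA, where N is any base. It was present in 20 of the 39 members (51.3%), against 3.99% of the 27025 genes with such a window and 3.47% of the 11814 genes of the deposited table with one. The GAS core TTCNNNGAA was in 9 of 39 members (23.1%), against 9.55% of the 27025. The 250 bases before the start of Isg15 (chr4:156200819-156201068, minus strand) and of Ifit1 (chr19:34640639-34640888, plus strand) are shown whole, since these are standard readouts of the response. They run 5′ to 3′ along the gene's strand, and capitals mark the element, which on the opposite strand reads TTTC, 2 bases, TTTC.
Isg15: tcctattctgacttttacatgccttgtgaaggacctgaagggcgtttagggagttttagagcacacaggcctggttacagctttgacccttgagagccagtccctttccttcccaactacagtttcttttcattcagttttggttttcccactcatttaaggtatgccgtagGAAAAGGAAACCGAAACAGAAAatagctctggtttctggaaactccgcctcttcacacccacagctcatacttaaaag
Ifit1: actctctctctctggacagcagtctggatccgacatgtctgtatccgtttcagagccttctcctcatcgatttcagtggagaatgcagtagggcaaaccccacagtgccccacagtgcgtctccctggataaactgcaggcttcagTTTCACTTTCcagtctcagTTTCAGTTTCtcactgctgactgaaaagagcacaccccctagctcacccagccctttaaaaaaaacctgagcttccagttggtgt
In Isg15, 3 overlapping copies of the core form 1 block. In Ifit1, 2 separate copies lie on the strand opposite to the gene. Shorter windows of 30 bases show the element in members whose values recur below: Oas1a (chr5:120907520-120907549, minus strand), Rsad2 (chr12:26456553-26456582, minus strand), Gbp3 (chr3:142559989-142560018, plus strand), Ddx60 (chr8:61928024-61928053, plus strand), Trim30a (chr7:104465210-104465239, minus strand), Ifit3 (chr19:34583397-34583426, plus strand) and Ifit3b (chr19:34607793-34607822, plus strand).
Oas1a: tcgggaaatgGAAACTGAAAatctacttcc
Rsad2: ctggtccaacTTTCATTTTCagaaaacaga
Gbp3: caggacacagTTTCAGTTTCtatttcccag
Ddx60: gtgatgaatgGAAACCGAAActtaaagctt
Trim30a: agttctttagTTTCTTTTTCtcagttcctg
Ifit3: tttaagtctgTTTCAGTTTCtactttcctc
Ifit3b: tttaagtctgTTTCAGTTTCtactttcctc
The windows of Ifit3 and Ifit3b, neighbouring copies of 1 gene on chromosome 19, are the same in all 30 bases. An element lay within 100 bases before the start in 10 members, and those of Ddx58 (3 bases after the start), Eif2ak2 (19 bases after) and Ifih1 (33 bases after) lay past it. Members called higher in R6/2 mice, as described below, held the core in 14 of 26 (53.8%) and the other members in 6 of 13 (46.2%). A match gives the letters in this window and is not a measured binding site.

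**Figure D1:**
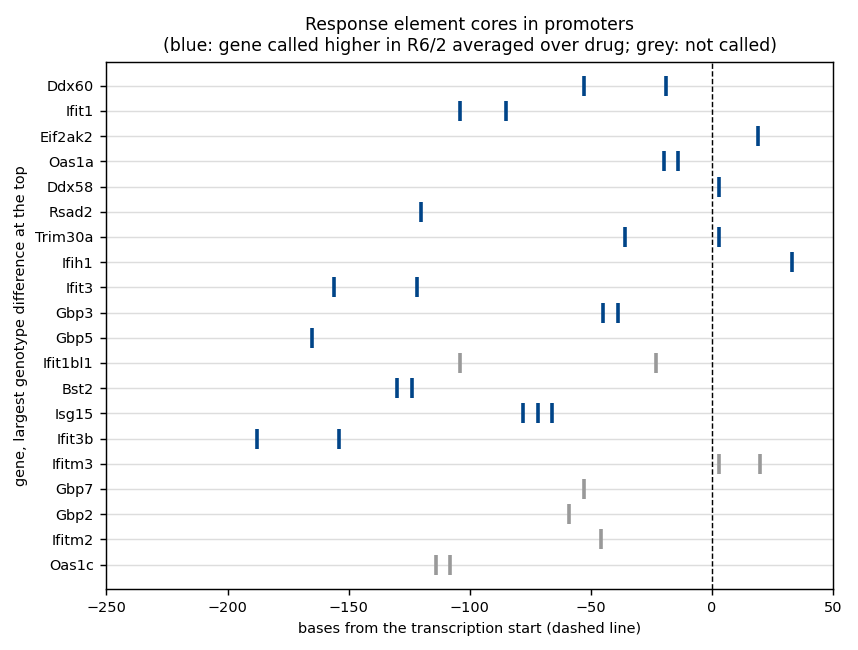
Positions of ISRE core matches in the promoter windows of 20 members, as distance in bases from the RefSeq transcription start (x axis; 0 is the start), 1 row for each member. Most matches lie upstream of the start, the farthest at -188 in Ifit3b, while those of Ddx58, Eif2ak2, Ifih1 and Ifitm3 and 1 of those of Trim30a lie just past it.

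Between 18902120 and 24293208 reads were recovered for each library, and levels are given in log2 CPM (the reads of a gene relative to all reads of the library, as a logarithm, with a small prior added by the authors). Differences between groups are log2 changes ± SE from limma over all 12 libraries, and a gene is called where its Benjamini-Hochberg adjusted p over 15397 genes was under 0.05. With 3 mice in a group the precision is set by the spread between animals. Microglial genes fell with the drug in both genotypes: 10 of 10 markers were called lower in wild type and 9 of 10 in R6/2, where Csf1r itself was at 6.75, 6.62 and 7.16 log2 CPM on vehicle and -0.79, -0.24 and 1.39 on PLX3397. All 9 markers of medium spiny neurons, the main striatal neurons, were called lower in R6/2 mice averaged over the drug. Markers of neighbouring regions differed between libraries. The summed level of 4 choroid plexus genes (of 6 on the list) was 12.1 log2 CPM in R6/2 vehicle library 1 and 10.02 in wild-type PLX3397 library 1, against 5.48 to 6.73 in the other 10. That of 5 cortical neuron genes was 4.67 and 4.38 in R6/2 PLX3397 libraries 1 and 2 and 6.03 in wild-type PLX3397 library 1, against 7.72 to 10.4 in the other 9. Counts of called members, and the changes of some of the members that were extreme in these libraries, are also given without them. Of 9 markers of T and NK cells, 2 were in the table (Cd4 and Trbc2), and of 6 monocyte and neutrophil markers 1 (Lyz2). The defining Cd3e, Cd3d, Cd3g and S100a8 were not analysed here.

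The members differed widely in level. Per kilobase of transcript, on the log2 CPM scale in wild-type mice on vehicle, the highest were Adar, an RNA-editing enzyme active in neurons without interferon (4.65), Ifi27, an interferon-induced membrane protein (4.12), Ifitm3, which blocks viral entry (3.18), and Cmpk2, a mitochondrial nucleotide kinase (2.88). The lowest were Oas2 (-3.38), Ddx60 (-2.94), Gbp6 (-2.50) and Ifi44 (-2.45). Low members rested on few reads. Oas2 had 5, 9 and 8 reads in the wild-type vehicle libraries and 61, 22 and 26 in the R6/2 vehicle libraries. Ifitm7 had 3, 0 and 3 reads in the wild-type PLX3397 libraries.

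On vehicle, 10 of the 53 members were higher in R6/2 than in wild-type striatum and none was lower, against a background of 2.11% of all genes called, 0.617% higher and 1.49% lower. Among the called members the largest rises were those of Usp18, the protease that removes Isg15 (2.22 ± 0.37, 4.65-fold), Oasl2 (1.99 ± 0.35), Oas1a (1.99 ± 0.37) and Ifit1 (1.74 ± 0.35). Parp9, Gbp5, Rtp4, Parp12, Trim30a and Ddx58 followed, at 1.48 to 1.01. The median change of the members was 0.97, against 0.0088 over all genes, and 47 of 53 changes were above 0 (50.8% of all genes). In 36 members all 3 R6/2 libraries lay above all 3 wild-type libraries (16.4% of all genes did so), and in no member did they all lie below (17.1% of all genes). Markers of some other cell types moved the same way on vehicle, and those of others moved the opposite way. The changes of 8 of 8 brain endothelial markers were above 0 (median 0.62, none called), and their summed level was 8.18 to 8.4 log2 CPM in R6/2 against 7.28 to 8.03 in wild-type libraries. Those of 5 of 5 cortical neuron genes were above 0 as well (median 1.24, none called), and of 3 of 4 choroid plexus genes (median 0.38, none called). No change was above 0 among 8 astrocyte markers (median -0.60, Slc1a3 and Gja1 called lower) or 6 oligodendrocyte markers (median -0.42, none called). The same held for 9 markers of medium spiny neurons (median -2.50, 4 called lower). Of 10 microglial markers, 3 were above 0 (median -0.10, none called). The part of these cell types in the members' changes was not tested. These were bulk samples, in which fewer cells of a type and less RNA per cell cannot be told apart. The count of calls varied with the libraries: it was 0 without wild-type vehicle 1, wild-type vehicle 2 or R6/2 vehicle 2, and 1 without R6/2 vehicle 1 or 3, while the median change stayed between 0.82 and 1.07.

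**Figure D2:**
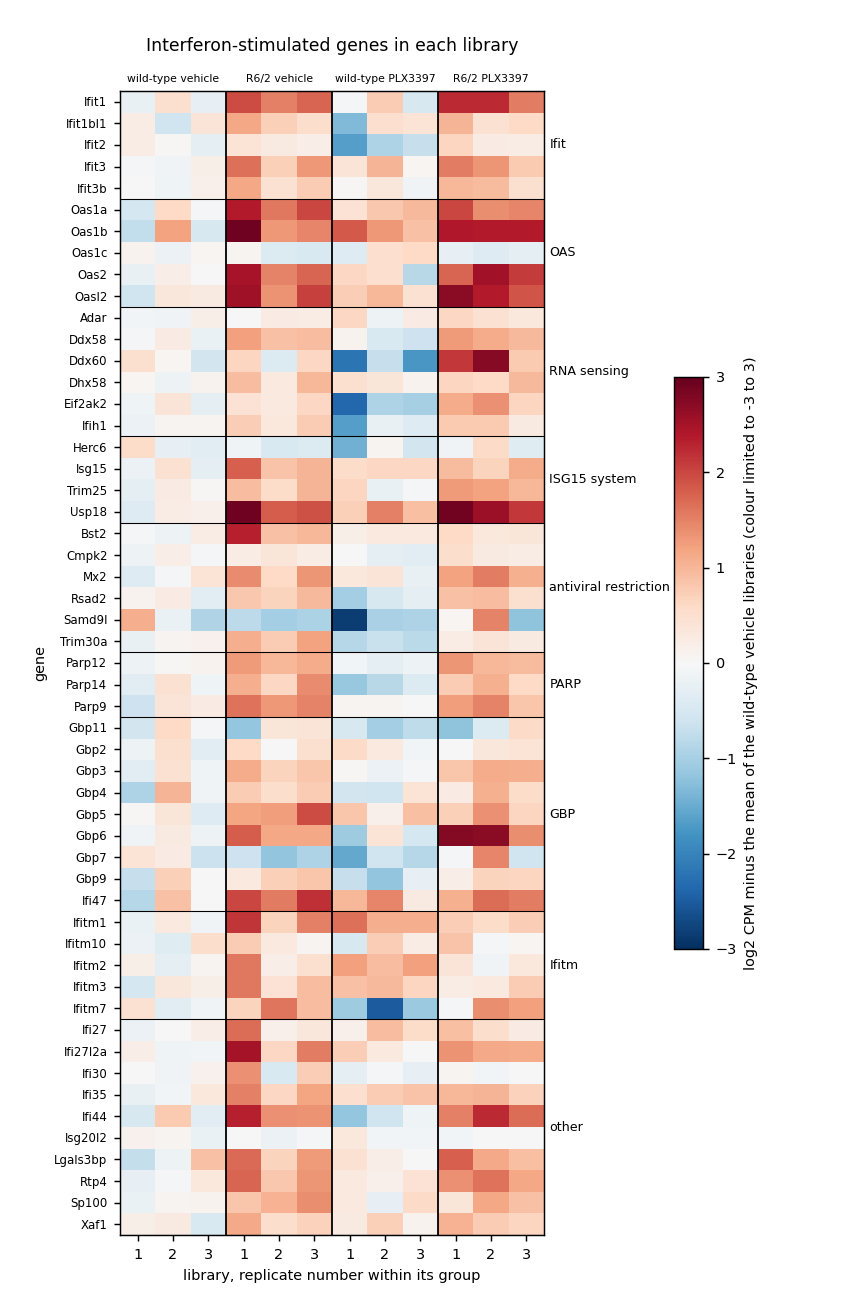
Level of each of the 53 members in each of the 12 libraries, as log2 CPM minus that member's mean in the 3 wild-type vehicle libraries (colour scale), with members in rows by role and libraries in columns by group. In 21 members, Usp18, Isg15 and Ifit1 among them, every R6/2 library was above every wild-type library.

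On PLX3397, 24 members were higher in R6/2 than in wild type and 1 (Ifitm2) was lower. The background in this comparison was 35% of all genes called, 17.1% higher and 17.9% lower. The largest changes were those of Ddx60, a helicase linked to RIG-I signalling (3.42 ± 0.57), Gbp6 (2.67 ± 0.45), Eif2ak2, the kinase PKR that stops translation (2.47 ± 0.36), Ifi44 (2.44 ± 0.43) and Ifitm7 (2.41 ± 0.54). Ddx60 had 3, 14 and 5 reads in the wild-type PLX3397 libraries. The transcripts of Ddx60, Gbp6, Eif2ak2 and Ifi44 were at 40.1%, 42.5%, 44.4% and 40.8% GC and Ifitm7 at 48.3%, against a member median of 47.5%. Spearman's rho of GC content with this genotype change was -0.577 over the members and -0.476 over all genes. The median over the members was 0.89, against -0.0031 over all genes, 47 changes were above 0 (49.9% of all genes), and 31 members did not overlap with R6/2 above (22.6% of all genes). Without R6/2 PLX3397 libraries 1 and 2, which had the lowest cortical levels, a single R6/2 library remained on the drug. Then 1 member was called (Parp12) and the median was 0.74. That fit assumes that the lone library varies like the other groups.

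The comparisons on vehicle and on PLX3397 have no library in common but do share the pooled estimate of spread. Called higher in both were Ddx58, Ifit1, Oasl2, Parp12, Parp9, Rtp4, Trim30a and Usp18, which is 80% of the vehicle list and 33.3% of the PLX3397 list. Of all genes, 0.617% were called higher on vehicle and 17.1% on PLX3397. The share of all genes called higher in both was not computed, so these percentages have no background beside them. The change was above 0 in both for 43 members and below 0 in both for 2, Isg20l2, a nuclease of ribosome biogenesis named for its likeness to Isg20, and Oas1c. With R6/2 above wild type and no overlap in both were 26 members, against 4.02% of all genes. In 21 members all 6 R6/2 libraries lay above all 6 wild-type libraries, against 2.9% of all genes. A call on one treatment and not on the other does not show that the genotype change differs between them; that is the interaction given below, which was called for 5 members.

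Averaged over vehicle and drug, which uses 6 mice of each genotype, 37 members were higher in R6/2 mice and none was lower (background 22.4% called, 10.5% higher). The median change was 0.91, against 0.012 over all genes, and 50 changes were above 0 (51.5% of all genes). By this average Parp12 had the smallest adjusted p (1.20 ± 0.11, limma adjusted p = 0.000145, 0.00013 to 0.0031 over the alternatives). The calls of 15 members held in every alternative fitted to this average, which were 21 (20 for Ifitm7, which the filter at a mean of 1 CPM removed): Ddx58, Gbp3, Gbp6, Ifi44, Ifit1, Ifitm7, Oas1a, Oas2, Oasl2, Parp12, Parp14, Parp9, Rtp4, Trim30a and Usp18. For the 37 called members the change kept its sign in each of these. Without R6/2 PLX3397 libraries 1 and 2, 15 members were called.

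**Figure D3:**
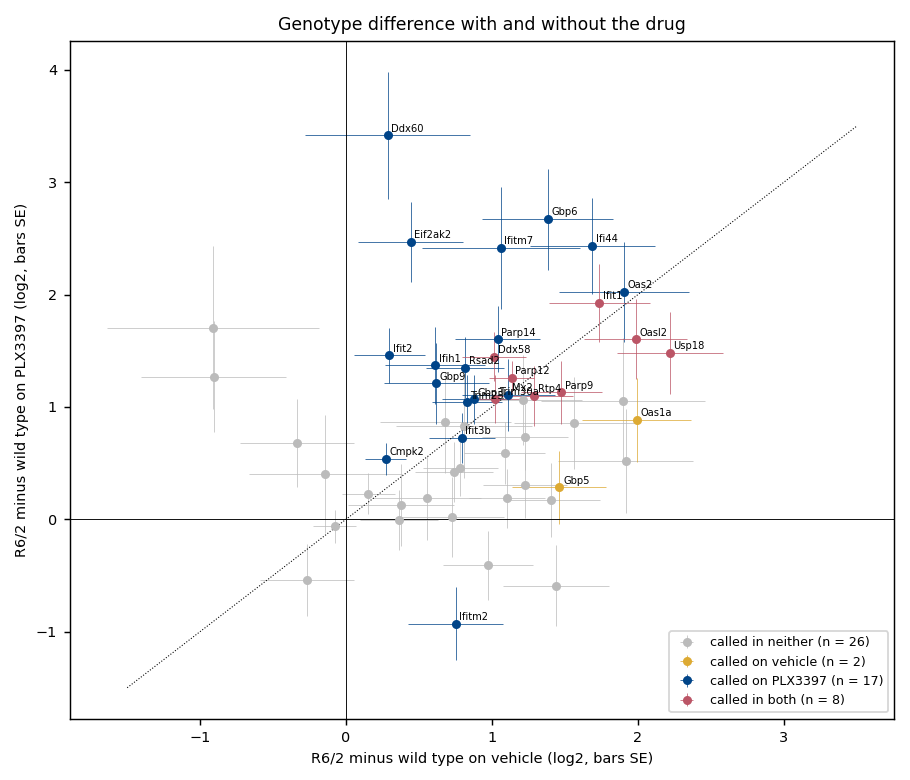
R6/2 minus wild type as a log2 change on vehicle (x axis) against the same on PLX3397 (y axis) for the 53 members, n = 3 mice in each group, with bars for SE. Of these, 43 points lie above 0 on both axes, while Ddx60 and Eif2ak2 lie far higher on the drug and Ifitm1 and Ifitm2 fall below 0 there.

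Among the Ifit genes, whose products bind foreign RNA and block its translation, 1 of 5 was called higher in R6/2 mice on vehicle, 3 of 5 on PLX3397 and 4 of 5 on average. Beside these counts and those of the families below stand the shares of all genes called higher. They were 0.617% on vehicle, 17.1% on PLX3397 and 10.5% on average. Ifit1 was at 0.94, 1.66 and 0.91 log2 CPM in wild-type mice on vehicle and at 1.11, 1.94 and 0.70 in those on PLX3397. In R6/2 mice it was at 3.12, 2.68 and 2.91 on vehicle and 3.41, 3.41 and 2.70 on the drug. Every R6/2 library was thus above every wild-type library, by 1.74 ± 0.35 on vehicle (limma adjusted p = 0.0366) and 1.93 ± 0.35 on the drug (limma adjusted p = 0.00272). For Ifit3 the wild-type values were 3.08, 3.04 and 3.31 on vehicle and 3.53, 4.15 and 3.21 on the drug, and the R6/2 values 4.80, 3.85 and 4.44 (vehicle) and 4.67, 4.47 and 3.93 (PLX3397). Ifit3 was high in the vehicle-treated R6/2 mice, and on the drug 1 wild-type library reached into the R6/2 range. The genotype changes were 1.22 ± 0.30 and 0.73 ± 0.30, neither called alone (limma adjusted p = 0.0602 and 0.0752), and 0.98 ± 0.21 on average (limma adjusted p = 0.00869). Ifit3 and its neighbour Ifit3b share 51.2% and 45.0% of their 50-base words with each other, so reads may have been split between them or dropped. Ifit2 differed by genotype on the drug (1.46 ± 0.24) and was not called on vehicle (0.29 ± 0.24). It was at 4.0, 3.80 and 3.5 in wild type and 4.18, 4.03 and 3.98 in R6/2 mice on vehicle, and at 2.11, 2.83 and 3.08 (wild type) and 4.41, 4.01 and 3.99 (R6/2) on PLX3397. The wild-type libraries on the drug were the 3 lowest, and the R6/2 libraries stayed near 4 with or without it.

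The Oas genes encode enzymes that answer double-stranded RNA by making oligoadenylates, which switch on an RNA-degrading enzyme. Oas1b is annotated as a transcribed pseudogene in RefSeq. Of 5 members, 2 were called higher on vehicle, 2 on PLX3397 and 4 on average. Oasl2, an Oas-like member of the family, was at 0.66, 1.59 and 1.52 (vehicle) and 1.99, 2.25 and 1.72 (PLX3397) in wild-type mice. The R6/2 values were 3.80, 2.61 and 3.31 (vehicle) and 3.97, 3.64 and 3.14 (PLX3397). All 6 R6/2 libraries exceeded all 6 wild-type ones, by 1.99 ± 0.35 on vehicle and 1.60 ± 0.35 on the drug. Oas1a, a synthetase, stood at -1.68, -0.56 and -1.21 (vehicle) and -0.72, -0.35 and -0.18 (PLX3397) in wild type and at 1.24, 0.44 and 0.84 (vehicle) and 0.84, 0.24 and 0.32 (PLX3397) in R6/2 mice. The genotypes did not overlap under either treatment, and the call held on vehicle (1.99 ± 0.37) but not on the drug (0.89 ± 0.37, limma adjusted p = 0.0857). Oas1a shares 57.6% of its 50-base words with Oas1g, so its level is uncertain. Oas2 gave -1.44, -1.01 and -1.21 (vehicle) and -0.60, -0.71 and -2.06 (PLX3397) in wild type, and 1.26, 0.27 and 0.52 (vehicle) and 0.51, 1.29 and 0.89 (PLX3397) in R6/2 mice. Its wild-type levels were below 0 throughout, and its changes were 1.90 ± 0.45 on vehicle (limma adjusted p = 0.055, not called) and 2.02 ± 0.45 on the drug. Oas1c, at changes of -0.27 and -0.54, was not called.

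Isg15 is conjugated to proteins by a cascade that includes the ligases Herc6 and Trim25 and is removed by Usp18, which also damps receptor signalling. Usp18 was at -0.64, -0.01 and -0.08 in wild-type mice on vehicle and 0.47, 1.26 and 0.65 on PLX3397. In R6/2 mice it was at 2.68, 1.57 and 1.67 (vehicle) and 2.64, 2.31 and 1.87 (PLX3397). R6/2 vehicle library 1 and R6/2 PLX3397 library 1 were the highest, and the genotypes did not overlap. The genotype change was 2.22 ± 0.37 on vehicle (limma adjusted p = 0.0238) and 1.48 ± 0.37 on the drug (limma adjusted p = 0.0113). Without R6/2 vehicle library 1 the former was 1.87 and no longer called (limma adjusted p = 0.0521). Isg15 itself was at 0.76, 1.39 and 0.67 (vehicle) and 1.5, 1.57 and 1.56 (PLX3397) in wild type, and at 2.72, 1.80 and 1.97 (vehicle) and 1.89, 1.60 and 2.04 (PLX3397) in R6/2 mice. Though the genotypes did not overlap, the gap on the drug was small (0.30 ± 0.29, against 1.23 ± 0.29 on vehicle). Isg15 missed the threshold in both (limma adjusted p = 0.055 on vehicle and 0.431 on the drug) and passed it on average (0.76 ± 0.20). Trim25 was at 2.98, 3.5 and 3.31 (vehicle) and 3.91, 3.03 and 3.20 (PLX3397) in wild type and 4.18, 3.81 and 4.28 (vehicle) and 4.53, 4.47 and 4.26 (PLX3397) in R6/2 mice. It was called on the drug (1.04 ± 0.24) and not on vehicle (0.83 ± 0.24, limma adjusted p = 0.0888). Herc6, the main mouse ligase for Isg15, was called in no comparison, with changes of -0.33 on vehicle and 0.68 on the drug.

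**Figure D4:**
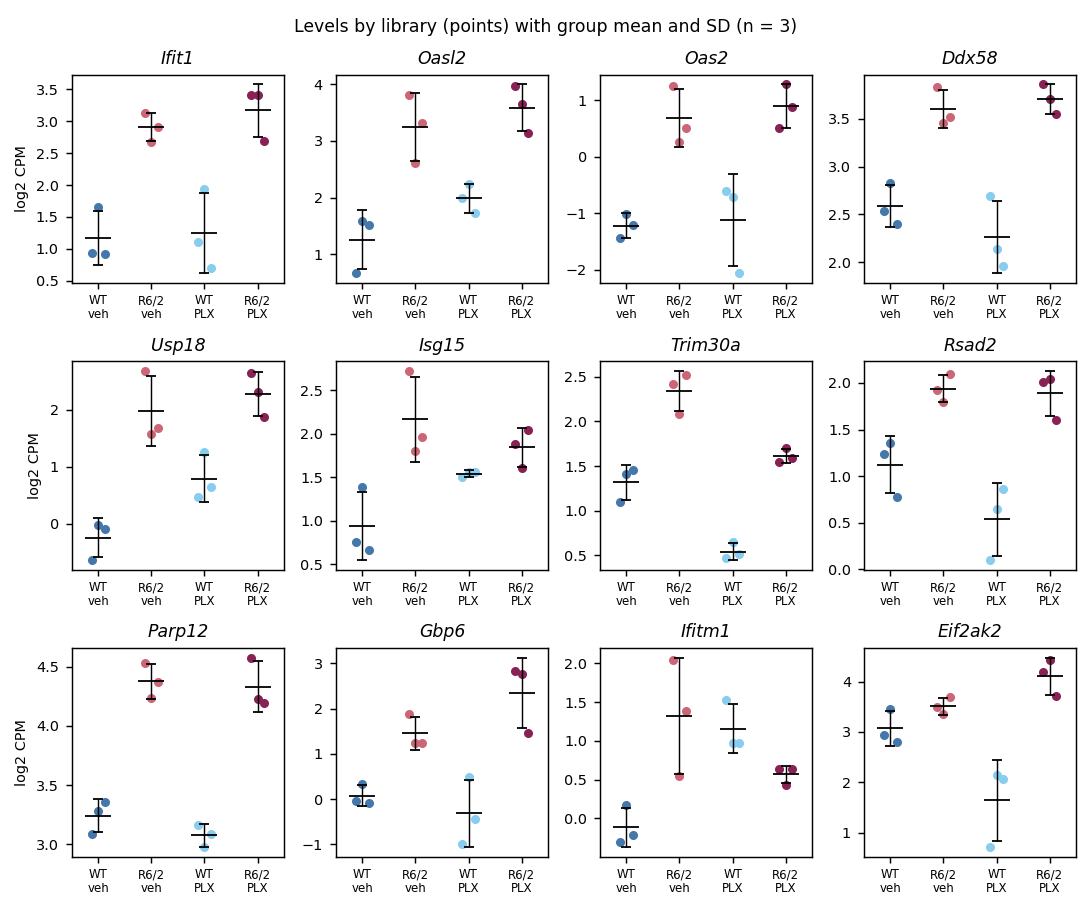
Level of 12 members in log2 CPM (y axis, with its own range in each panel) by group; points are single mice (n = 3 in each group), horizontal bars are group means and vertical bars SD. Usp18, Ifit1 and Parp12 are higher in both R6/2 groups, whereas Eif2ak2 is lowest in wild-type mice on PLX3397.

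Of the RNA sensors and their partners, 1 of 6 was called higher on vehicle, 4 on PLX3397 and 5 on average. Ddx58, which encodes the sensor RIG-I, was at 2.53, 2.83 and 2.40 (vehicle) and 2.69, 2.14 and 1.96 (PLX3397) in wild type and 3.83, 3.46 and 3.52 (vehicle) and 3.86, 3.71 and 3.55 (PLX3397) in R6/2 mice. It rose by 1.01 ± 0.22 on vehicle and 1.45 ± 0.22 on the drug without overlap. Ifih1, which encodes the sensor MDA5, was at 2.06, 2.32 and 2.31 (vehicle) and 0.57, 2.0 and 1.85 (PLX3397) in wild type and 2.97, 2.55 and 3.0 (vehicle) and 3.01, 3.02 and 2.49 (PLX3397) in R6/2 mice. Its lowest library was wild-type PLX3397 library 1, without which the change on the drug was 0.92 (limma adjusted p = 0.0145). Ifih1 was called on the drug (1.37 ± 0.34) and not on vehicle (0.61 ± 0.34). After removal of a trend on GC content and length the former was 0.79 (limma adjusted p = 0.112). For Eif2ak2 the values were 2.95, 3.46 and 2.80 in wild-type mice and 3.49, 3.35 and 3.69 in R6/2 mice on vehicle, and 0.71, 2.14 and 2.07 (wild type) and 4.18, 4.43 and 3.71 (R6/2) on PLX3397. The genotypes overlapped on vehicle and stood far apart on the drug. Eif2ak2 was lowest in wild-type PLX3397 library 1 (0.71) and highest in R6/2 PLX3397 libraries 1 and 2 (4.18 and 4.43). These were the libraries with the lowest cortical levels, and the part of that tissue in the gap was not tested. Ddx60 followed the same course, with 0.66, 0.23 and -0.37 (wild type) and 0.81, -0.23 and 0.80 (R6/2) on vehicle and -2.02, -0.52 and -1.57 (wild type) and 2.29, 2.91 and 0.95 (R6/2) on the drug. Its highest values came from R6/2 PLX3397 libraries 1 and 2, which had the lowest cortical levels, and without them its change on the drug was 2.32 (limma adjusted p = 0.114). R6/2 PLX3397 library 3, at 0.95, was above the wild-type mice on the drug but close to the vehicle groups. Adar did not differ by genotype beyond its spread: it was at 7.60, 7.57 and 7.85 (vehicle) and 8.28, 7.51 and 7.92 (PLX3397) in wild type and 7.68, 7.91 and 7.88 (vehicle) and 8.29, 8.12 and 7.99 (PLX3397) in R6/2 mice. Its changes were 0.15 ± 0.18 on vehicle and 0.23 ± 0.18 on the drug.

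Among 6 genes known for restricting viruses in the cell, 1 was called higher on vehicle, 4 on PLX3397 and 5 on average. Rsad2 (viperin), which makes a chain-terminating nucleotide, was at 1.24, 1.36 and 0.78 (vehicle) and 0.10, 0.65 and 0.86 (PLX3397) in wild type and 1.93, 1.80 and 2.09 (vehicle) and 2.01, 2.05 and 1.61 (PLX3397) in R6/2 mice. The wild-type libraries on the drug were low, and the genotype change was called there (1.35 ± 0.27) and not on vehicle (0.82 ± 0.27, limma adjusted p = 0.117). Its neighbour Cmpk2 was called on the drug at 0.54 ± 0.14. Bst2 (tetherin), which holds budding virus at the cell surface, was at 1.40, 1.31 and 1.68 (vehicle) and 1.65, 1.74 and 1.76 (PLX3397) in wild type and 3.79, 2.35 and 2.46 (vehicle) and 2.07, 1.79 and 1.82 (PLX3397) in R6/2 mice. Its highest value was in R6/2 vehicle library 1, the library with the high choroid plexus level, without which the vehicle change was 0.94 (limma adjusted p = 0.0848). The genotype change of 1.41 ± 0.33 on vehicle was not called (limma adjusted p = 0.0564), and on the drug it was 0.17 ± 0.33. Mx2, a gene of the dynamin-like Mx family that RefSeq annotates as a transcribed pseudogene in the mouse reference, was at -0.12, 0.23 and 0.67 (vehicle) and 0.57, 0.65 and 0.04 (PLX3397) in wild type and 1.68, 0.86 and 1.58 (vehicle) and 1.47, 1.79 and 1.32 (PLX3397) in R6/2 mice. The changes of Mx2 were alike in size on both treatments (1.11 ± 0.32 and 1.10 ± 0.32), but only that on the drug was called. Trim30a, a mouse tripartite motif protein, was at 1.09, 1.41 and 1.45 in wild-type and 2.42, 2.08 and 2.52 in R6/2 mice on vehicle. On PLX3397 it was at 0.47, 0.65 and 0.51 (wild type) and 1.55, 1.70 and 1.59 (R6/2). In both genotypes its values on the drug lay below those on vehicle, and it was higher in R6/2 mice on both treatments, by 1.02 ± 0.21 and 1.07 ± 0.21.

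The 3 PARP family members, which add ADP-ribose to proteins, were all called higher on PLX3397 and on average, and 2 of 3 on vehicle. Parp12 was at 3.09, 3.28 and 3.36 (vehicle) and 3.16, 2.98 and 3.08 (PLX3397) in wild type and 4.53, 4.23 and 4.37 (vehicle) and 4.58, 4.23 and 4.19 (PLX3397) in R6/2 mice. The spread within each group was small next to the gap, which was 1.13 ± 0.15 on vehicle (limma adjusted p = 0.0161) and 1.26 ± 0.15 on the drug (limma adjusted p = 0.000603). On the drug this call held in each of 22 alternatives, the only member for which it did, and on vehicle in 19 of 22. Parp9 was at 0.81, 1.81 and 1.68 (vehicle) and 1.52, 1.52 and 1.44 (PLX3397) in wild type and 3.06, 2.74 and 2.93 (vehicle) and 2.68, 2.92 and 2.27 (PLX3397) in R6/2 mice. Its model overlaps that of its partner Dtx3l, and with no strand stated for the counting their reads may mix. Parp14 was at 1.65, 2.45 and 1.86 (vehicle) and 0.84, 1.15 and 1.59 (PLX3397) in wild type and 3.07, 2.60 and 3.40 (vehicle) and 2.75, 3.04 and 2.59 (PLX3397) in R6/2 mice. The wild-type libraries on the drug were the lowest, and the genotype change was called on the drug alone (1.60 ± 0.29, against 1.04 ± 0.29 on vehicle, limma adjusted p = 0.0848).

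Guanylate-binding proteins and the related GTPase Ifi47, which attack vacuoles that hold pathogens, gave a mixed picture. Of 9, 1 was called on vehicle (Gbp5, 1.46 ± 0.32), 3 on PLX3397 and 5 on average. Gbp3 was at 2.48, 3.27 and 2.67 (vehicle) and 2.85, 2.63 and 2.78 (PLX3397) in wild type and 3.92, 3.47 and 3.65 (vehicle) and 3.63, 3.92 and 3.90 (PLX3397) in R6/2 mice. It did not overlap by genotype, with changes of 0.88 ± 0.22 (not called, limma adjusted p = 0.0632) and 1.07 ± 0.22. Gbp6 was at -0.04, 0.34 and -0.08 (vehicle) and -0.99, 0.48 and -0.45 (PLX3397) in wild type and 1.88, 1.24 and 1.24 (vehicle) and 2.83, 2.77 and 1.46 (PLX3397) in R6/2 mice. Again R6/2 PLX3397 libraries 1 and 2 were the highest, and without them the change on the drug was 1.78 (limma adjusted p = 0.129). Of Gbp6, 70.7% of the 50-base words occur in another gene model, Gm43302. Gbp2, the member best known as a target of interferon gamma, was at 2.23, 2.85 and 2.04 (vehicle) and 2.94, 2.66 and 2.29 (PLX3397) in wild type and 2.97, 2.38 and 2.85 (vehicle) and 2.38, 2.72 and 2.77 (PLX3397) in R6/2 mice. The Gbp2 groups overlapped throughout, with changes of 0.36 ± 0.27 and -0.01 ± 0.27. Gbp4, Gbp7 and Gbp11, the last annotated as a transcribed pseudogene, were also called in no comparison, with genotype changes of -0.91 to 1.27.

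The Ifitm proteins sit in membranes and hinder viral fusion, and their genes changed in both directions on PLX3397. On vehicle all 5 changes were above 0 (0.38 to 1.44) and none was called. On the drug Ifitm7 was called higher and Ifitm2 lower (-0.93 ± 0.32, limma adjusted p = 0.045). After removal of the GC and length trend the Ifitm2 change was -0.22 (limma adjusted p = 0.596). Ifitm1 was at -0.30, 0.17 and -0.22 in wild-type and 2.04, 0.54 and 1.39 in R6/2 mice on vehicle, and at 1.52, 0.97 and 0.98 (wild type) and 0.63, 0.44 and 0.63 (R6/2) on PLX3397. Ifitm2 was at 1.90, 1.46 and 1.79 (wild type) and 3.29, 1.92 and 2.20 (R6/2) on vehicle and at 2.96, 2.65 and 2.95 (wild type) and 2.11, 1.62 and 2.04 (R6/2) on the drug. In both genes the order of the genotypes turned: R6/2 was above wild type on vehicle and below it on the drug, without overlap either time. The 2 highest libraries of both genes were R6/2 vehicle 1 and wild-type PLX3397 1, the libraries high in choroid plexus genes, and R6/2 vehicle 1 was also the highest for Ifitm3. Without this pair the change of Ifitm1 was 1.08 on vehicle and -0.41 on the drug, and that of Ifitm2 0.34 and -0.88, the last of them called (limma adjusted p = 0.0214). The part of that tissue in the result was not tested. Ifitm3 was at 2.10, 2.96 and 2.79 (wild type) and 4.2, 3.04 and 3.54 (R6/2) on vehicle and 3.5, 3.58 and 3.27 (wild type) and 2.84, 2.91 and 3.37 (R6/2) on the drug, where the groups overlapped, and was called in no comparison. Ifitm2 shares 48.5% of its words with Gm45717 and Ifitm3 shares 63 of 629 with Gm7676, so both levels carry that doubt.

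Of 10 other members, 1 was called higher on vehicle (0.617% of all genes), 2 on PLX3397 (17.1%) and 7 on average (10.5%). Rtp4, a chaperone of receptors induced by interferon, was at 0.94, 1.11 and 1.5 (vehicle) and 1.47, 1.34 and 1.61 (PLX3397) in wild type and 2.92, 2.0 and 2.5 (vehicle) and 2.56, 2.81 and 2.34 (PLX3397) in R6/2 mice. It was called on both treatments (1.29 ± 0.27 and 1.10 ± 0.27). Ifi44 was at -0.30, 0.95 and -0.15 (vehicle) and -0.99, -0.43 and 0.04 (PLX3397) in wild type and 2.49, 1.55 and 1.53 (vehicle) and 1.68, 2.40 and 1.85 (PLX3397) in R6/2 mice, called on the drug and not on vehicle (1.69 ± 0.43, limma adjusted p = 0.0678). Both genes separated the genotypes in all 12 libraries. Xaf1, a promoter of apoptosis, was at 2.77, 2.86 and 2.14 (vehicle) and 2.86, 3.30 and 2.69 (PLX3397) in wild type and 3.73, 3.11 and 3.28 (vehicle) and 3.64, 3.35 and 3.23 (PLX3397) in R6/2 mice. Sp100, a nuclear body protein, was at 1.40, 1.66 and 1.70 (vehicle) and 1.89, 1.34 and 2.16 (PLX3397) in wild type and 2.42, 2.62 and 2.97 (vehicle) and 1.95, 2.73 and 2.47 (PLX3397) in R6/2 mice. For Xaf1 and Sp100 the genotypes were apart on vehicle and overlapped on the drug, and only the average was called (0.62 ± 0.18 and 0.84 ± 0.20). Lgals3bp, a secreted galectin ligand, was at 1.70, 2.27 and 3.30 (vehicle) and 2.87, 2.63 and 2.43 (PLX3397) in wild type and 4.13, 3.09 and 3.69 (vehicle) and 4.21, 3.56 and 3.33 (PLX3397) in R6/2 mice. Its wild-type vehicle libraries spread widely, and its average change of 1.14 ± 0.28 was called.

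Many members had their highest value of the 12 libraries in R6/2 vehicle library 1. Those not pointed out above were Gbp2, Gbp3, Ifi35, Ifi44, Ifit1bl1, Ifit3, Ifit3b, Isg15, Oas1a, Oas1b, Parp9, Rtp4 and Xaf1. For these the changes without that library are not given singly. Ifi27l2a, Ifi27 and Ifi30 were highest there as well. Ifi27l2a was at 0.26, -0.08 and -0.02 (vehicle) and 0.80, 0.34 and 0.04 (PLX3397) in wild type and 2.56, 0.69 and 1.60 (vehicle) and 1.40, 1.19 and 1.16 (PLX3397) in R6/2 mice. Ifi27 was at 4.49, 4.65 and 4.87 (vehicle) and 4.82, 5.59 and 5.21 (PLX3397) in wild type and 6.35, 4.83 and 5.0 (vehicle) and 5.56, 5.20 and 4.92 (PLX3397) in R6/2 mice. Ifi30, a lysosomal reductase of antigen-presenting cells, was at 1.33, 1.26 and 1.48 (vehicle) and 1.07, 1.31 and 1.11 (PLX3397) in wild type and 2.73, 0.90 and 2.09 (vehicle) and 1.45, 1.27 and 1.34 (PLX3397) in R6/2 mice. In all 3 genes R6/2 vehicle library 1, where choroid plexus genes summed to 12.1 log2 CPM, was the highest of the 12. In wild-type PLX3397 library 1, the other library high in those genes, Ifi27l2a was the highest of its group and Ifi27 and Ifi30 were the lowest of theirs. Of the 3, only Ifi27l2a was called, on average (1.21 ± 0.29), and without this pair of libraries that change was 1.08 (limma adjusted p = 0.00999). With R6/2 vehicle library 1 and wild-type PLX3397 library 1 left out, 2 members were called on vehicle, the median change there was 0.82, and 35 members were called on average. Ifi27 and Ifi27l2a overlap in the annotation, so reads in the overlap cannot be assigned without strand.

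Within wild-type mice, 5 of 53 members changed with PLX3397 (background 14.2% called, 5.93% higher and 8.3% lower). Ifitm1 (1.27 ± 0.36) and Ifitm2 (1.13 ± 0.32) rose. Ifit2 (-1.09 ± 0.24), Eif2ak2 (-1.43 ± 0.36) and Trim30a (-0.78 ± 0.21) fell. The calls made up 9.43% of the members, and the members' median change was 0.096, against 0.0050 for all genes. The calls were 0 without wild-type vehicle 1 or 2, 2 without wild-type vehicle 3, R6/2 vehicle 3, R6/2 PLX3397 2 or any one wild-type PLX3397 library, 3 without R6/2 PLX3397 1 or 3, and 1 (lower) after removal of the GC and length trend. Within R6/2 mice no member was called by limma (background 1.1%, 0.0585% higher and 1.04% lower), and limma-voom on recovered reads called none as well. At an unadjusted p under 0.05 there were 4 members of 53, against 13.1% of all genes. These were Ddx60 (1.59 ± 0.57) and Gbp7 (1.18 ± 0.50), with values above those on vehicle, and Bst2 (-0.98 ± 0.33) and Trim30a (-0.73 ± 0.21), with values below. The median change was -0.0050. Over the same libraries Csf1r fell by 6.72 and Tmem119, a microglial membrane protein, by 6.05.

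The interaction, the PLX3397 change of the R6/2 mice less that of the wild-type mice, was called for 5 members (background 17%, 9.29% above 0 and 7.71% below). It was above 0 for Ddx60 (3.13 ± 0.80, limma adjusted p = 0.0279), Eif2ak2 (2.03 ± 0.51, limma adjusted p = 0.0261) and Ifit2 (1.16 ± 0.34, limma adjusted p = 0.0421). It was below 0 for Ifitm1 (-2.03 ± 0.51, limma adjusted p = 0.0272) and Ifitm2 (-1.68 ± 0.46, limma adjusted p = 0.0332). None was called after a trend on GC content and length was removed from each library, where the changes were 1.73, 1.64, 0.72, -1.44 and -0.84 in the same order. None was called without R6/2 PLX3397 libraries 1 and 2 together or either alone, or without wild-type vehicle 1 or 2. Without the pair of libraries high in choroid plexus genes the interaction was -1.49 for Ifitm1, no longer called (limma adjusted p = 0.0573), and -1.22 for Ifitm2 (limma adjusted p = 0.0454). Of 8 endothelial markers, Ly6c1 (-1.06 ± 0.28) and Esam (-1.23 ± 0.37) were called below 0 in the interaction, and their part in that of the Ifitm genes was not tested. Transcript GC content moved with these changes. The members ran from 39.0% to 56.9% GC with a median of 47.5%, against 50.4% over 14305 genes, and Ddx60 and Eif2ak2 were at 40.1% and 44.4% whereas Ifitm1 and Ifitm2 were at 51.4% and 54.4%. Across the 53 members, which share libraries and are not independent replicates, Spearman's rho of GC content with the drug's change was 0.686 in wild type and -0.353 in R6/2, and with the interaction -0.679. Across all 14305 genes the values were 0.533, -0.487 and -0.576. For the genotype change on vehicle, rho was 0.233 over the members and 0.285 over all genes. On PLX3397 it was -0.577 over the members and -0.476 over all genes. For the average of these 2 opposite relations it was -0.234 over the members and -0.236 over all genes. With the trend removed, 18 members were called higher on vehicle, 29 were called on the drug and 36 on average. The shares of all genes called with the trend removed are not given here, and those of the main fit do not apply to these counts.

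**Figure D5:**
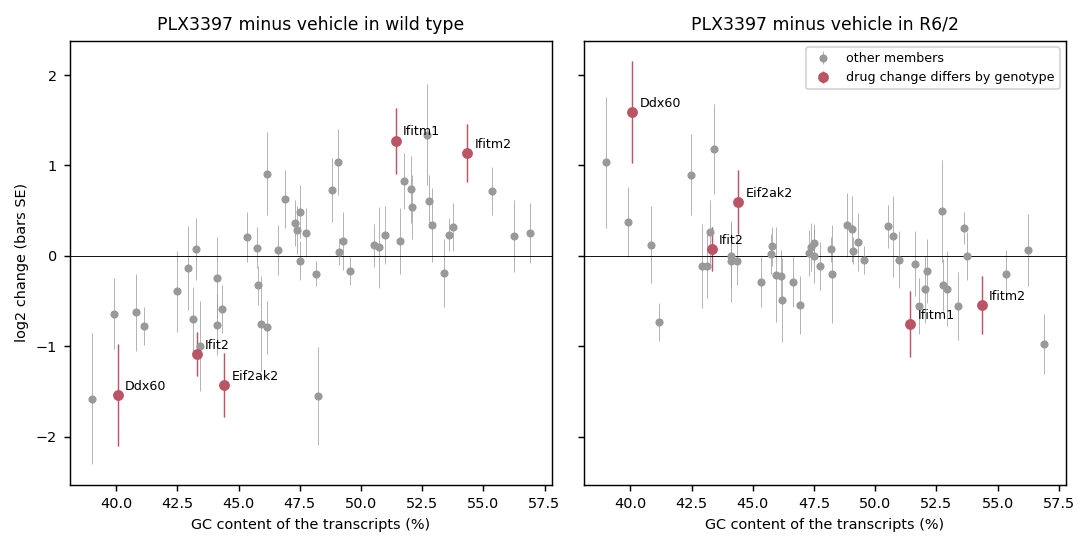
Log2 change with PLX3397 (y axis) against transcript GC content in percent (x axis) for the 53 members, in wild-type mice and in R6/2 mice (n = 3 in each group). The change runs upward with GC in wild type (rho 0.686) and downward in R6/2 (rho -0.353).

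Upstream of the effectors, 25 of 31 genes of interferon signalling were in the table. Irf7, the factor that amplifies type I interferon output, was at 0.61, 1.26 and 0.85 (vehicle) and 1.58, 1.82 and 1.41 (PLX3397) in wild type and 3.73, 3.30 and 3.35 (vehicle) and 2.69, 3.04 and 3.07 (PLX3397) in R6/2 mice. It was higher in R6/2 mice on vehicle by 2.56 ± 0.23 and on the drug by 1.33 ± 0.23. Irf9, which binds the response element, was 0.76 ± 0.14 and 0.62 ± 0.14 higher. Irf7 and Irf9 were called on both treatments, and their genotypes did not overlap. In all, 4 of 25 were called higher on vehicle (with Irf1 and Myd88) and none lower, against 0.617% and 1.49% of all genes. On PLX3397, 3 of 25 were called higher (with Tlr3) and 1 lower (Irf8), against 17.1% and 17.9% of all genes. The interaction was called for 4 of 25, against 17% of all genes. It was above 0 for Tlr3 (1.43) and below 0 for Irf7 (-1.22), Irf3 (-0.89) and Irf8 (-2.28). Whether these 4 calls held under the alternatives, such as removal of the GC and length trend, is not given here. Genes of microglial sensing fell with the drug in both genotypes: Tlr7, an endosomal RNA sensor, by 3.59 in wild type and 4.2 in R6/2, Irf5 by 3.54 and 2.64, and Tmem173, which encodes STING, by 2.83 and 2.80. Irf8, a factor of the myeloid lineage, was at 2.78, 2.79 and 1.99 (vehicle) and 1.89, 0.43 and 1.41 (PLX3397) in wild type and 2.29, 1.84 and 2.65 (vehicle) and -1.98, -0.39 and -1.52 (PLX3397) in R6/2 mice, and its fall was called in R6/2. With the drug, Irf9 stood at changes of 0.18 ± 0.14 in wild type and 0.03 ± 0.14 in R6/2, neither of them called.

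Over the 6 comparisons 39 of the 53 members were called at least once. The share of all genes called at least once was not computed. In single comparisons it ran from 1.1% of all genes (the drug in R6/2) to 35% (genotype on PLX3397). The 14 called in none were Adar, Gbp11, Gbp2, Gbp4, Gbp7, Herc6, Ifi27, Ifi30, Ifit1bl1, Ifitm10, Ifitm3, Isg20l2, Oas1c and Samd9l. A p over the threshold does not show that these are alike between groups: Samd9l, a translation-blocking restriction factor, had changes of -0.91 on vehicle and 1.70 on the drug, neither called. The members lie on 13 chromosomes of GRCm38, with the 5 Ifit genes in chromosome 19 from 34550550 to 34662981, 9 Gbp and Oas genes on chromosome 5 and 4 Gbp genes on chromosome 3.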

How the data were processed

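RNA from the striatum of 12 mice was sequenced from TruSeq libraries. The submitters' processing notes name STAR, featureCounts, edgeR, limma and the mm10 build, without versions or roles, and no strand setting is given in the sources used here. The authors deposited values named RPKM that behave as log2 CPM: the lowest value was -3.46 in each library, the antilogs summed to 920461 to 1070700, and once a prior of 1.65 to 2.41 reads was taken off, 100% of values lay within 0.1 of a whole read. Libraries held 18902120 to 24293208 recovered reads, with 1 to 55 genes at 0 reads. The deposited log2 values were used unchanged.

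Groups came from the sample labels. Group means were fitted to all 12 libraries with limma 3.58.1 (R 4.3.3) with an intensity trend, with two-sided moderated tests and Benjamini-Hochberg adjustment over 15397 genes for each of 6 comparisons. Members and gene lists were chosen with earlier results of these data known. Values in every library are given for the 20 called members with the smallest p and for a further fixed set of well-known members; others are named with counts, ranges or single changes, and Ifitm1, Ifitm2, Gbp5, Cmpk2, Ifitm7 and Samd9l were given more detail after their values were seen. Transcript length and GC content came from GENCODE M21 (all 53 members, 14305 genes), and promoter windows from RefSeq on GRCm38.p6, the same build as mm10. Words of 50 bases shared with other gene models were counted in the GENCODE transcripts.

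The 22 alternatives were a rescaling by median of ratios, a pseudocount of 1 CPM, a filter at a mean of 1 CPM, a fit of the 6 libraries compared, a replicate block, removal of a spline trend on GC content and length, no intensity trend, limma-voom on recovered reads (added after seeing the data), each library left out in turn, and pairs of libraries left out. Python 3.11.15 with numpy 2.4.6, pandas 2.3.3 and matplotlib 3.10.9 made the tables and plots. Mx1 and Zbp1 were not analysed here. One gene of the interferon signalling list is not reported here, and the counts for that list leave it out.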

Additional observations from a re-analysis of the deposited data

Results flagged for a closer look

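The drug's change differed between R6/2 and wild-type mice, by limma's test of that difference itself, for 5 members, which is 9.43% of the members against 17% of all genes. The drug's change in R6/2 minus that in wild type was 3.13 for Ddx60, 2.03 for Eif2ak2 and 1.16 for Ifit2, and -2.03 for Ifitm1 and -1.68 for Ifitm2. For Ddx60, Eif2ak2 and Ifit2 the wild-type mice on PLX3397 had the lowest group mean, whereas for Ifitm1 and Ifitm2 their values lay above those of the R6/2 mice on the drug. The adjusted p ranged over the alternatives from 0.0132 to 0.29 for Ddx60, 0.0165 to 0.276 for Eif2ak2, 0.0272 to 0.291 for Ifit2, 0.0263 to 0.256 for Ifitm1 and 0.0316 to 0.269 for Ifitm2. None of the 5 was called after removal of the GC and length trend. No outlier test was run within the groups of 3. Each library was left out in turn, and these calls depended on single libraries, as given above.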

How the results depend on the processing

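Called changes kept their sign under each alternative fitted to them (the fit of the 6 libraries compared gives no interaction or average, and the filter at a mean of 1 CPM removed Ifitm7), and the counts of called members moved more than the medians. The shares of all genes called under each alternative are not given here, so these counts have no background of their own. In the order vehicle genotype comparison, drug in wild type, genotype comparison on PLX3397, interaction and genotype average, the main counts were 10, 5, 25, 5 and 37. Removal of the GC and length trend gave 18, 1, 29, 0 and 36. Without R6/2 PLX3397 libraries 1 and 2, the lowest in cortical genes, where 1 R6/2 library is left on the drug, they were 4, 2, 1, 0 and 15. Without the pair of libraries high in choroid plexus genes they were 2, 6, 27, 4 and 35, and by limma-voom on recovered reads 5, 2, 25, 4 and 35. A fit of the 6 libraries compared gave 5, 0 and 22 for the first 3. Leaving out each library in turn gave 0 to 13, 0 to 6, 21 to 26, 0 to 8 and 30 to 37. The count for the drug in R6/2 was 0 in each alternative. The cause of these shifts was not tested. Where libraries were left out, the fit also rested on fewer of them, and the 2 were not separated. With the replicate block the counts were 1, 3, 25, 4 and 35; same-numbered libraries of different groups correlated at -0.32 to 0.40 in their deviations from the group means, so the numbers were not taken to pair the mice. The planned edgeR test was not run, since the deposited values are logs and not counts. Rescaling by median of ratios, a pseudocount of 1 CPM, the filter at a mean of 1 CPM and no intensity trend kept each count within 1.5 times its main value. Members with under about 10 reads in a group of libraries, such as Ifitm7 and Oas2, are limited by depth.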
